A study of Mus musculus with 4 samples.

Results

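Elastic fibre and lysyl oxidase genes were followed across the stromal cell types of the mouse small intestine. The set held 10 genes, defined by name, from what their proteins do, with earlier results of these data known: Eln, Fbn1, Fbln1, Fbln2, Fbln5, Mfap4, Mfap5, Lox, Loxl1 and Loxl2. All 10 were among the 18619 genes measured. The study asked how PDGFRβ+ intestinal stromal cells shape the lacteals, the lymphatic vessels of the villi. The series had 4 single-cell RNA libraries, namely WT replicates 1 and 2, LATS1/2 KO 1w and LATS1/2 KO 2w. The KO 1w library is the only sample with values here, and the other 3 were not analysed here.

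The KO 1w cells came from adult C57BL/6J mice that carried Pdgfrb-Cre-ERT2, an R26-tdTomato reporter and Lats1 fl/fl Lats2 fl/fl alleles. They were given tamoxifen at 8 weeks of age and taken 1 week later. Lats1 and Lats2 are the kinases that restrain the transcriptional coactivators YAP and TAZ. The Cre driver acts in PDGFRβ+ cells, so both the deletion and the red reporter were limited to cells with Pdgfrb promoter activity. The tdTomato+ cells were sorted after removal of the serosa and muscle layer and of CD45+ (immune), CD326+ (epithelial) and CD31+ (endothelial) cells. Every cell analysed came from this genotype, so nothing below separates an effect of the deletion from the normal difference between cell types. Lats1 was still read at 14.2 counts per 1000000 (CPM) and Lats2 at 53.5 CPM, but which exons the alleles lose and where these reads lie are not given in the sources used here, so these levels do not check the deletion.

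Elastic fibres let the intestinal wall and its vessels stretch and recoil. Their core is cross-linked elastin (Eln), laid down on a scaffold of fibrillin microfibrils (Fbn1) that carry associated glycoproteins such as MFAP4 and MAGP-2 (Mfap5). Fibulin-5 (Fbln5) binds elastin and lysyl oxidase-like 1 and guides elastin onto the scaffold, while fibulin-1 and fibulin-2 (Fbln1, Fbln2) lie in elastic fibres and basement membranes. The copper enzymes Lox, Loxl1 and Loxl2 oxidise lysines of elastin and collagens, the step that makes the cross-links. In the gut, fibroblasts, smooth muscle cells (SMCs) and the mural cells (MCs) around capillaries are the known producers of these proteins.

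In mm10, 2 of the genes share chromosome 6, where Fbln2 spans 91212455 to 91272540 and Mfap5 spans 122505845 to 122529290, both on the plus strand. Fbln1 spans 85205949 to 85286535 of chromosome 15 (plus strand), and Fbln5 spans 101746565 to 101819055 of chromosome 12 (minus strand). Eln lies on chromosome 5 from 134702593 to 134747323, Fbn1 on chromosome 2 from 125300594 to 125507993 and Mfap4 on chromosome 11 from 61485431 to 61488900. Loxl1 lies on chromosome 9 from 58287738 to 58313186 and Loxl2 on chromosome 14 from 69609068 to 69695834. Counting read the transcripts of these protein-coding genes at their ends, so levels of different genes are not ranked against each other here.

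Fbln1 and Fbln5 differed in opposite directions between several fibroblast clusters, as described below, and so the bases before their start sites are shown. RefSeq windows on GRCm38.p6 existed for 4 of the 10 genes (Fbn1, Fbln1, Fbln2 and Fbln5). Fbln1 and Fbln5 had 2 windows each, and the one whose start site lies nearest the annotated gene start is shown. The first window below is chr15:85205699-85205948, plus strand, which ends where the annotated Fbln1 gene starts. The second is chr12:101819120-101819369, minus strand, whose start site lies 64 bases before the annotated Fbln5 gene. Capitals mark matches to the GC box GGGCGG or its complement and to CCAAT.
Fbln1: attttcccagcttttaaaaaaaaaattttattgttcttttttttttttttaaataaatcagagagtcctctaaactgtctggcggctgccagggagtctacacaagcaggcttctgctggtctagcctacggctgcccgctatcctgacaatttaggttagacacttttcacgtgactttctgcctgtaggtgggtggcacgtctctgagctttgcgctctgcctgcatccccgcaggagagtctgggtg
Fbln5: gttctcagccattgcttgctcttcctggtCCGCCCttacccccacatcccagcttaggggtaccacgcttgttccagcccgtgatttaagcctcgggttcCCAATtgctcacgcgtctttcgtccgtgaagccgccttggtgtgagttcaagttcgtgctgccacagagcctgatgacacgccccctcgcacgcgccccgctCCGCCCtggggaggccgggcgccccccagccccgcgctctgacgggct
The Fbln5 window held 2 GC boxes, 221 and 48 bases before the start site, and 1 CCAAT box at 150 bases, and the Fbln1 window held neither. In the windows not shown this was reversed, with 1 GC box for Fbln1, 11 bases before its start site, and no match for Fbln5. Both strands were searched. GGGCGG was found in 32.7% and CCAAT in 33.8% of 32851 windows of 250 bases. The TEAD motif GGAATG (12.6% of windows), the AP-1 motif TGANTCA (6.75%) and TATAAA (12.4%) had no match in the windows of these 4 genes. The shorter TEAD core GGAAT, which is part of the longer motif and is in 34.2% of windows, matched in 1 of their 6 windows, the Fbln5 window not shown, 165 bases before its start site. These are letter matches within short windows and say nothing of binding.

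The library held 4108 cells with 46054627 unique molecular identifiers (UMIs, each standing for a captured transcript), a median of 10726 UMIs and 3331.5 genes per cell. The authors had split the cells by Xist, giving 1983 in columns marked M and 2125 in columns marked F. No barcode occurred under both marks. All 4108 cells had a Pdgfrb UMI, and no immune, endothelial, epithelial, glial or mesothelial list named a cluster (the highest of those markers, Lyz2, reached 54.8 CPM). With 1 library there is no replicate, hence no test and no p-value. Intervals in parentheses are 95% exact counting intervals (Poisson for levels, binomial for ratios, Clopper-Pearson for shares) that cover counting error only, and values for M and F cells are given as a look at spread, not as replicates. In summed cells, fewer cells that use a gene and less RNA per cell cannot be told apart.

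Clustering without the 10 genes gave 9 clusters, named from the marker genes of the study's cell classes. The FB4-like cluster (691 cells) met 4 of 4 FB4 markers and was led by Cd81, Cilp and Ackr4. It also met 4 of 4 adventitial fibroblast markers (Pi16, Dpp4, Ly6c1 and Sema3c). The FB5-like cluster (205 cells) met 5 of 5 FB5 markers but also 4 of 6 SMC markers, and Kcnj8 and Abcc9, best known from pericytes, were among its leading genes. The SMC-like cluster (76 cells) met 6 of 6, the MC-like cluster (69 cells) 7 of 7 and the vFB3-like cluster (45 cells) 5 of 5 of their own markers. The vFB3-like cells were led by Adgrf5 and Plvap, known from endothelium. Pecam1, Cdh5 and Kdr were at 0 there, but the authors had removed Pecam1+ and Cdh5+ cells and Pecam1 was at 0 UMIs in the whole library, so this does not check the name. The remaining 4 clusters (3022 cells) had high Adamdec1, a secreted metalloproteinase of villus fibroblasts, and met at most 2 of 4 markers of the vFB1 and vFB2 classes, so they are called Adamdec1-high 1 to 4. Adamdec1-high 2 and 4 had high Amotl2, a target gene of YAP and TAZ, and clusters 3 and 4 had high Fos, an immediate early gene often induced by cell isolation. Adamdec1 itself was also at 4237 CPM in the SMC-like cells, close to the 4098 to 5006 CPM of the Adamdec1-high clusters. What part RNA of those cells plays in the SMC-like values was not tested.

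**Figure D1:**
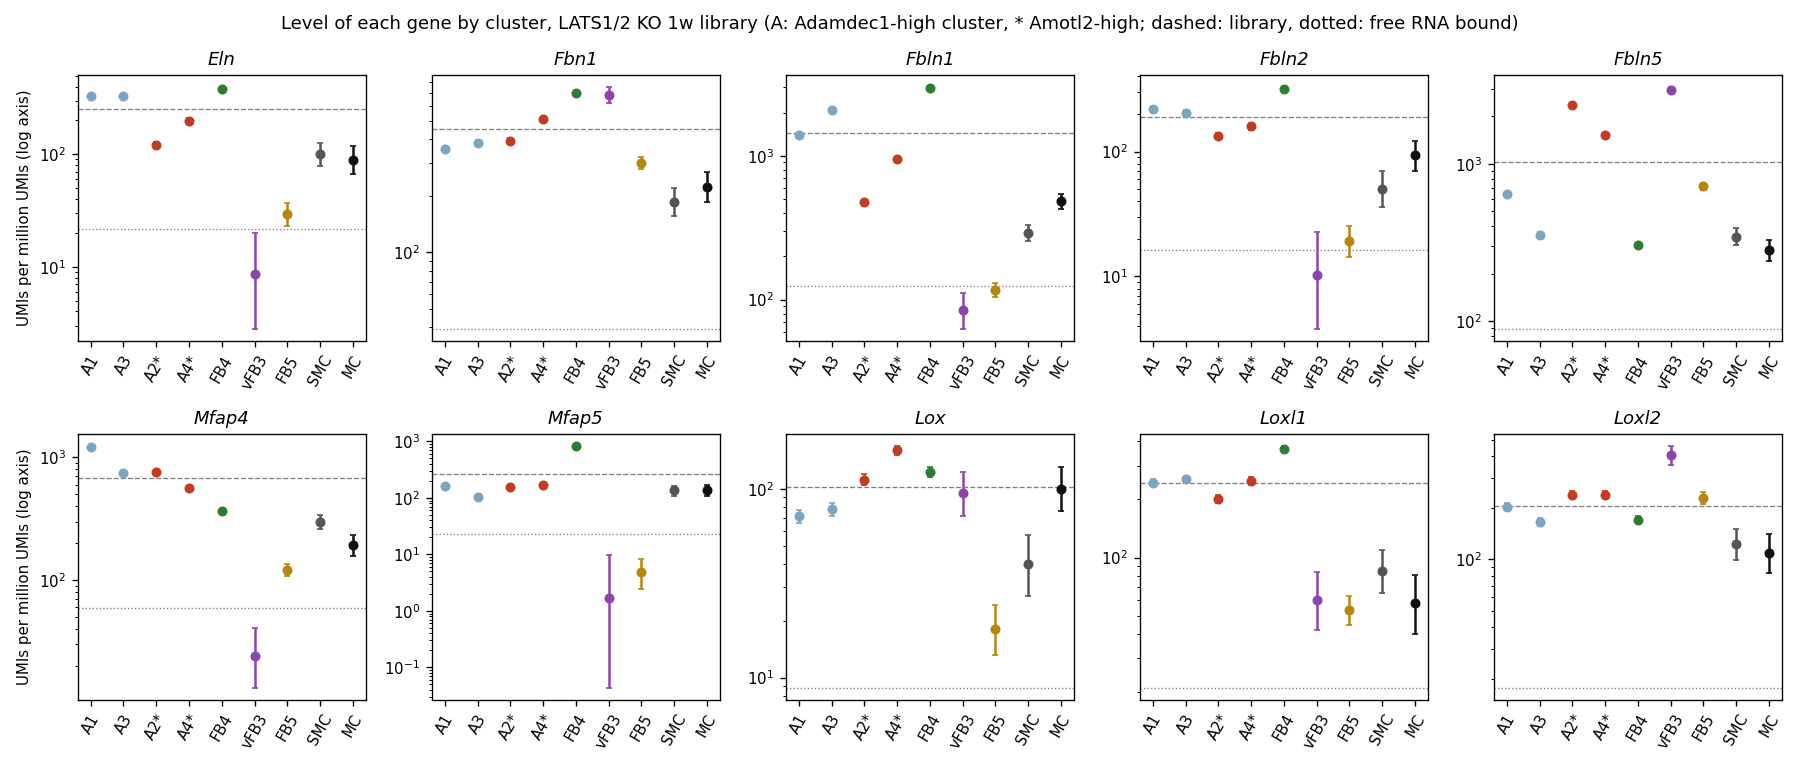
Level of each gene (summed CPM, log axis) in the 9 clusters, where A1 to A4 are the Adamdec1-high clusters, an asterisk marks high Amotl2, bars are 95% counting intervals, the dashed line is the library level and the dotted line the bound for free RNA. The vFB3-like cluster held the lowest Eln (8.60 CPM) and Mfap5 (1.72 CPM) but the highest Fbln5 (2934 CPM).

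Elastin was highest in the FB4-like cells among the 9 clusters. Eln was at 384 CPM (371 to 397) in FB4-like cells, at 330 CPM in Adamdec1-high 1, 121 CPM in 2, 330 CPM in 3 and 198 CPM in 4. It was at 99.6 CPM in SMC-like, 89.7 CPM in MC-like, 29.2 CPM in FB5-like and 8.60 CPM in vFB3-like cells, the last from 5 UMIs. Adamdec1-high 1 and 3 had overlapping intervals, as had Adamdec1-high 2, SMC-like and MC-like cells, while the other neighbours in the order were apart. At the finer resolution of 1.0 a set of 350 cells drawn from several Adamdec1-high clusters, with Amotl2 at 235 CPM, had more Eln (456 CPM) than the FB4-like sets (403 and 335 CPM). Thinned to 5000 UMIs per cell, 64.3% of FB4-like cells (60.5 to 67.9) and 58.4% of Adamdec1-high cells had an Eln UMI, against 10.0% of FB5-like and 4.55% of vFB3-like cells (unthinned 83.1%, 78.1%, 24.4% and 6.67%). Free RNA at an upper bound described below could alone give 10.3% of cells an Eln UMI at this depth, so the low pair of shares lies within background. By summed level, Eln in FB5-like cells (22.9 to 36.7 CPM) lay above its bound of 21.7 CPM, and in vFB3-like cells below it.

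The microfibril genes were unlike each other. Fbn1, the scaffold itself, was among the most even of the set, from 186 CPM in SMC-like and 223 CPM in MC-like cells through 299 CPM in FB5-like cells and 354, 390, 380 and 509 CPM in Adamdec1-high 1 to 4 to 686 CPM in vFB3-like and 704 CPM in FB4-like cells. The last pair overlapped, and the whole range was 3.78-fold. Mfap5, whose product MAGP-2 binds fibrillin, was the most uneven. It stood at 820 CPM (801 to 840) in FB4-like cells, 103 to 169 CPM in the Adamdec1-high clusters, 136 CPM in SMC-like and 137 CPM in MC-like cells, and 4.80 CPM in FB5-like and 1.72 CPM (1 UMI) in vFB3-like cells. The FB4-like cells were 16.8% of all cells and held 57.9% of all Mfap5 UMIs. A Mfap5 UMI was found in 80.3% of thinned FB4-like cells (77.1 to 83.2), 30.1% of Adamdec1-high cells and 1.5% of FB5-like cells (unthinned 90.3%, 40.9% and 5.37%), where free RNA at its bound could give 10.8%. Mfap4, another microfibril-associated glycoprotein, ran the other way between Adamdec1-high and FB4-like cells. It was at 1224, 755, 740 and 565 CPM in Adamdec1-high 1 to 4 and 368 CPM in FB4-like cells. It was at 300 CPM in SMC-like, 192 CPM in MC-like, 120 CPM in FB5-like and 24.1 CPM in vFB3-like cells. Both Mfap4 and Mfap5 were thus lowest in FB5-like and vFB3-like cells. Over the 9 clusters their log levels had r = 0.78 (Pearson, a description).

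The fibulins split into 2 patterns. Fbln1 was highest in FB4-like cells at 2979 CPM (2943 to 3016), then at 2083 CPM in Adamdec1-high 3, 1403 CPM in 1, 944 CPM in 4 and 475 CPM in 2. It was at 484 CPM in MC-like, 291 CPM in SMC-like, 117 CPM in FB5-like and 84.3 CPM in vFB3-like cells. Fbln2 followed a similar order, from 317 CPM in FB4-like and 133 to 217 CPM in the Adamdec1-high clusters to 10.3 CPM in vFB3-like cells. Among fibroblasts Fbln5 was nearly the reverse: 2934 CPM (2797 to 3077) in vFB3-like cells, 2364 CPM in Adamdec1-high 2 and 1527 CPM in 4, but 639 CPM in 1, 354 CPM in 3 and 303 CPM in FB4-like cells. Its FB5-like level was 718 CPM, its SMC-like level 345 CPM and its MC-like level 282 CPM, so both contractile clusters were below the library level in Fbln1 (1439 CPM) and Fbln5 (1031 CPM) alike. Across the 9 clusters, which share 1 library, the log levels of Fbln1 and Fbln2 had r = 0.97 and those of Fbln1 and Fbln5 r = -0.48 (Pearson, a description).

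**Figure D2:**
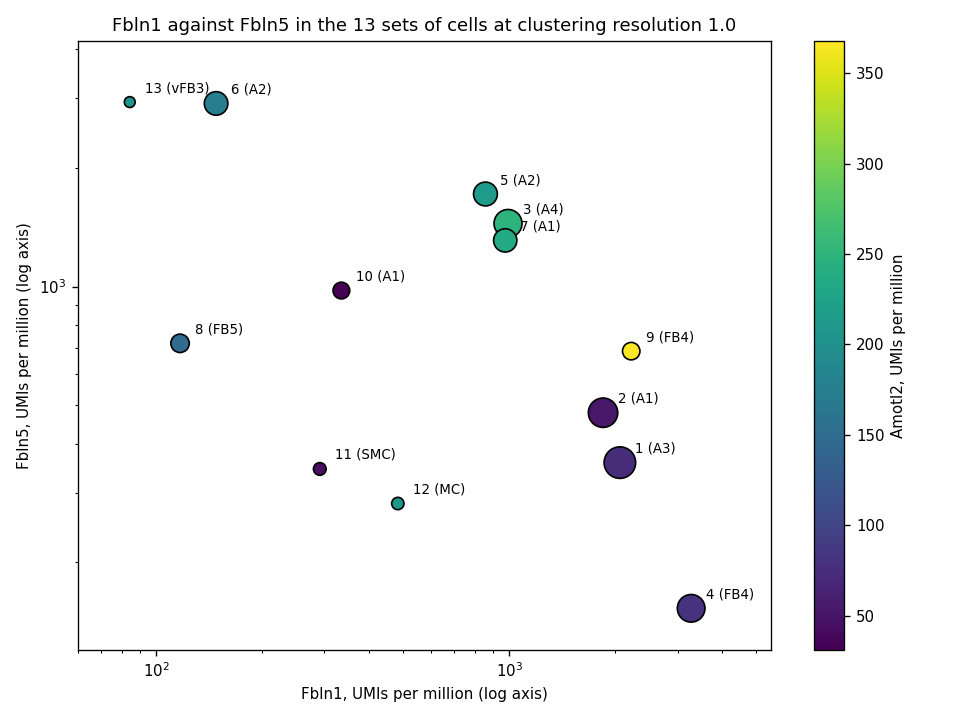
Fbln5 level against Fbln1 level (both CPM, log axes) in the sets of cells found at the finer clustering resolution of 1.0, each point being 1 set, its area growing with the number of cells and its colour giving Amotl2 (CPM). Sets with high Fbln5 include the vFB3-like cells (2934 CPM, Fbln1 84.3 CPM), and the FB4-like sets lie at high Fbln1 (3277 and 2217 CPM).

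The lysyl oxidases varied less than elastin. Lox, which lies on chromosome 18, was at 160 CPM in Adamdec1-high 4, 111 CPM in 2, 78.0 CPM in 3 and 71.7 CPM in 1, with 123 CPM in FB4-like, 100 CPM in MC-like, 94.6 CPM in vFB3-like, 39.9 CPM in SMC-like and 18.0 CPM in FB5-like cells. Loxl1, the enzyme most closely tied to elastin, was highest in FB4-like cells (367 CPM), stood at 201 to 254 CPM in the Adamdec1-high clusters and at 53.2 to 85.0 CPM elsewhere. Loxl2, better known from basement membrane collagen, peaked in vFB3-like cells with 406 CPM (356 to 461) and ranged from 109 to 239 CPM elsewhere, a 3.72-fold span. The 3 enzymes peaked in different clusters here, but at resolution 1.0 Lox (217 CPM) and Loxl1 (382 CPM) were both highest in the Amotl2-high FB4-like set.

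Compared with the 3022 Adamdec1-high cells, the FB4-like cells had more Mfap5 and Fbln1 and less Fbln5 and Mfap4. Mfap5 was 5.51-fold higher (5.31 to 5.71), by 6.80-fold in M and 4.84-fold in F cells, and Fbln1 2.47-fold higher (2.43 to 2.51). Fbln5 was 4.09-fold lower (3.94 to 4.26), by 4.93-fold in M and 3.70-fold in F cells, and Mfap4 2.26-fold lower (2.18 to 2.34). Thus 2 genes were at least 2-fold higher and 2 at least 2-fold lower, where 3.58% and 6.04% of 11577 genes were. Fbln1 missed the limit with the elastic genes kept among the variable genes or immediate early genes left out (1.88 each) and with types from markers per cell (1.83), and Mfap4 with at most 5% mitochondrial UMIs (0.570) and with markers per cell (0.545). Fbln2 (ratio 1.78), Fbn1 (1.73), Eln (1.58) and Loxl1 (1.55) were higher by less than that, Lox was near even (1.17) and Loxl2 lower (0.804). The median ratio of the 10 genes was 1.57, against 0.923 for all genes. All 10 ratios lay on the same side of 1 in M and F cells. In the comparisons below this held for 8 to 10 of the 10 genes, with 9 in SMC-like and 8 in MC-like cells.

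**Figure D3:**
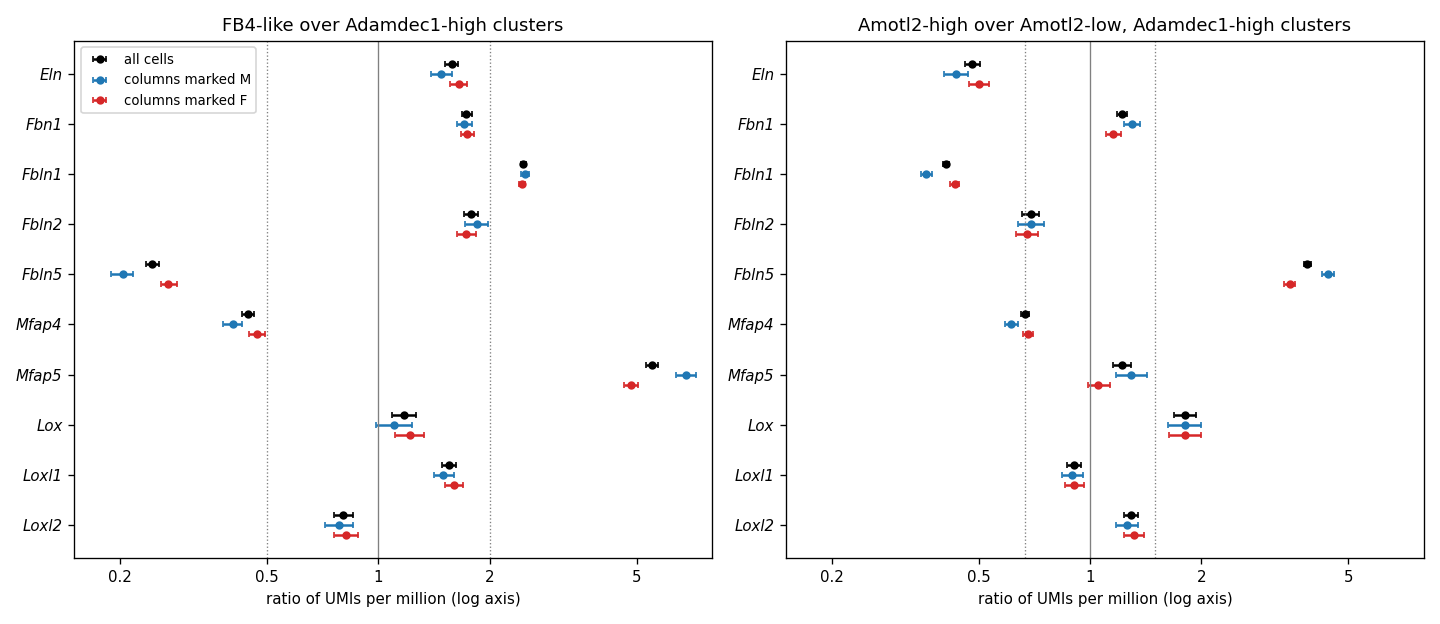
Ratio of each gene's level (log axis) in FB4-like over Adamdec1-high cells on the left and in Amotl2-high over Amotl2-low cells on the right, for all cells and for M and F cells, with 95% counting intervals and dotted lines at the 2-fold and 1.5-fold limits. Fbln5 lies at 0.244 on the left and 3.87 on the right, and Fbln1 at 2.47 and 0.406.

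The vFB3-like cells had fibrillin, fibulin-5 and Loxl2 transcripts with very little elastin. Fbln5 was 2.37-fold higher (2.25 to 2.49) than in Adamdec1-high cells, Loxl2 had a ratio of 1.92 (1.67 to 2.18), Fbn1 of 1.69 (1.52 to 1.87) and Lox of 0.904 (0.679 to 1.18). Mfap4 was 34.5-fold lower (20.6 to 63.1), Eln 28.3-fold (12.1 to 87.2), Fbln2 17.2-fold (7.91 to 47.0), Fbln1 14.3-fold (10.8 to 19.4) and Loxl1 3.93-fold (2.82 to 5.64) lower. Mfap5 had a ratio of 0.0115 (0.000292 to 0.0643). In all, 1 gene was at least 2-fold higher and 6 lower, where 8.08% and 15.8% of all genes were. The median ratio was 0.162 against 1.05 for all genes. Of these 45 cells, 1 with 2 or more FB4 markers held 38.8% of the 49 Fbln1 UMIs and 50% of the 14 Mfap4 UMIs, and without it the levels were 53.3 and 12.4 CPM. The cluster is small, and in settings where it took in 331 to 1102 cells the number of lower genes was 1 or 3, the Eln ratio was as high as 0.671, Mfap4 reached a ratio of 1.09 and Fbn1 went as low as 0.875.

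The FB5-like cells were low in 7 of the 10 genes. Relative to Adamdec1-high cells, Mfap5 was 31.0-fold lower (17.7 to 60.1), Fbln1 10.3-fold (9.17 to 11.6), Fbln2 9.26-fold, Eln 8.33-fold, Mfap4 6.92-fold, Lox 5.81-fold and Loxl1 4.44-fold. Loxl2 (ratio 1.07, 0.985 to 1.17), Fbn1 (0.737) and Fbln5 (0.579) were nearer. No gene was at least 2-fold higher. With types from markers per cell, 4 genes were lower. Over all genes, 5.53% were higher and 11.5% lower, and the median ratio was 0.158 against 1 for all genes. Free RNA limits these low values: in 2004 cells in which Xist reached 5 UMIs or more, Y-linked genes still stood at 8.64% of their library level, taken as an upper bound for RNA from other cells. Fbln2 in FB5-like cells (19.2 CPM, 14.2 to 25.5) had an interval that held its bound of 16.4 CPM. Fbln1 and Mfap5 in FB5-like cells, and Eln, Fbln1, Fbln2, Mfap4 and Mfap5 in vFB3-like cells, were at or below the bound, so they cannot be told apart from free RNA here. Their UMIs were unevenly spread, with 48.8% of Fbln1 UMIs of FB5-like cells in 5 of 205 cells and 69.4% of those of vFB3-like cells in 5 of 45.

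The contractile clusters had low levels of much of the set. In SMC-like cells 8 genes were at least 2-fold lower than in Adamdec1-high cells (background 12.9%) and none higher (6.50%), from Fbn1 at 2.18-fold lower (1.85 to 2.60) to Fbln1 at 4.15-fold (3.63 to 4.76). Mfap5 (ratio 0.909, 0.740 to 1.11) and Loxl2 (0.577) were the other 2. These levels rest on few cells, as 5 of the 76 held 73.3% of Eln, 65.8% of Fbln1 and 73.7% of Fbln2 UMIs. With cell types set from markers per cell, 1 gene was lower and 1 higher, and no SMC-like class was found among cells with at most 5% mitochondrial UMIs. In MC-like cells 5 were lower (14.7%) and none higher (9.62%), namely Fbln5 (4.40-fold), Mfap4 (4.33-fold), Loxl1 (4.07-fold), Eln (2.71-fold) and Fbln1 (2.49-fold). The Mfap5 of this cluster lay in few cells. Of its 78 UMIs, 93.6% were in 5 of 69 cells that had 2 or more FB4 markers, as were 69.5% of Fbln1, 71.7% of Fbln2 and 63.6% of Loxl1 UMIs. Without those cells Mfap5 went from 137 to 10.8 CPM and Fbln1 from 484 to 182 CPM, and 8 genes were lower. With types from markers per cell 1 gene was lower.

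Within the Adamdec1-high cells the set divided along Amotl2. The 1413 cells of the Amotl2-high clusters, compared with the 1609 of the Amotl2-low clusters, had 3.87-fold more Fbln5 (3.78 to 3.97) and 1.80-fold more Lox (1.68 to 1.93). They had 2.46-fold less Fbln1 (2.41 to 2.51), 2.09-fold less Eln (1.99 to 2.19) and 1.5-fold less Mfap4. At a 1.5-fold limit 2 genes were higher and 3 lower, where 5.45% and 7.62% of all genes were. At resolution 1.0 the Eln ratio went from 0.478 to 0.869 and that of Mfap4 to 0.762, so only Fbln5, Lox and Fbln1 passed the limit there. That comparison was over fewer cells, 874 against 1259, because the naming rule then put sets of 360 cells, mostly of cluster 2, and 162 cells of cluster 1 with the vFB3-like cells and left a set of 369 cells unnamed. Mfap4 (ratio 0.665) lay just inside the limit and Fbln2 (0.689) just outside it. Loxl2 (1.29), Fbn1 (1.22), Mfap5 (1.22) and Loxl1 (0.901) differed less. Of the other targets of YAP and TAZ, Ajuba was 3.93-fold and Ctgf 2.57-fold higher, Axl had a ratio of 0.689 and Ankrd1 had 0 UMIs in all Adamdec1-high cells. Cyr61 was 2.23-fold higher, but this lay mostly in the Fos-high cluster 4 (925 CPM, against 165 CPM in 2, 353 CPM in 3 and 136 CPM in 1). Vegfc, the lymphatic growth factor, was 5.61-fold higher. Fbln5 was 4.40-fold higher in M and 3.47-fold higher in F cells.

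The division was seen with Fos low and with Fos high. Adamdec1-high 2 over 1, both Fos-low, gave 3.70-fold more Fbln5, 1.56-fold more Lox, and less Fbln1 (2.96-fold), Eln (2.72-fold), Fbln2 (1.64-fold) and Mfap4 (1.62-fold), with 6.04% of all genes higher and 12.6% lower. Adamdec1-high 4 over 3, both Fos-high, gave 4.31-fold more Fbln5, 2.05-fold more Lox and 1.65-fold more Mfap5, and less Fbln1 (2.21-fold) and Eln (1.67-fold), with 7.14% higher and 7.20% lower. The Fos split itself, cluster 3 with 4 over 1 with 2, had 1 gene higher, Fbln1 (1.59-fold), and 2 lower, Fbln5 (1.57-fold) and Mfap4 (1.52-fold), where 7.22% and 2.67% of all genes were.

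At the finer resolution, cells of the FB4-like cluster parted into 179 Amotl2-high cells (368 CPM) and 510 Amotl2-low cells (78.9 CPM), with 53 M and 126 F cells in the first. By the naming rule at that resolution only the 510 cells were FB4-like and the 179 had no name, so FB4-like here means membership in the cluster of 691 cells. Fbln5 was at 686 CPM where Amotl2 was high and 153 CPM where it was low, 4.49-fold higher (4.14 to 4.87). Lox was at 217 and 85.8 CPM, 2.53-fold higher (2.24 to 2.86), and Loxl2 was 1.53-fold higher (1.38 to 1.71). These 3 genes passed the 1.5-fold limit (8.42% of all genes higher) and none was lower by it (12.7%), although Fbln1 was close at a ratio of 0.677 (2217 and 3277 CPM). Mfap5 (1.05), Loxl1 (1.06) and Fbn1 (1.15) were near even. Eln was lower by less than the limit (0.830). Markers differed between these FB4-like sets too, with the adventitial marker Dpp4 at 95.4 and 7.32 CPM, Pi16 at 139 and 206 CPM and the FB4 marker Cilp at 111 and 321 CPM, and their part in the fibulin and Lox differences was not tested. Some sets did not follow Amotl2. The 350 cells with the highest Eln had high Amotl2, with Fbln1 at 975 CPM and Fbln5 at 1309 CPM, and 162 cells from Adamdec1-high 1 had low Amotl2 (31.1 CPM) with Fbln5 at 977 CPM and Fbln1 at 335 CPM. The latter cells shared high Fhl2 (456 CPM) and Mmp10 (178 CPM) with a set of 360 cells, mostly from Adamdec1-high 2 (Fhl2 445 CPM, Mmp10 114 CPM), which had Amotl2 at 172 CPM, Fbln5 at 2911 CPM and Fbln1 at 148 CPM. These sets were picked after their values were seen.

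Shares of single cells with a UMI of each fibulin were limited by free RNA, which at its bound could give 46.3% of cells a Fbln1 UMI and 36.0% a Fbln5 UMI at the depth used. With every cell thinned to 5000 UMIs, 58.2% of Amotl2-low FB4-like cells had Fbln1 without Fbln5 and 41.4% had both, whereas 91.0% of Amotl2-high FB4-like cells had both. The share of Amotl2-low FB4-like cells with a Fbln5 UMI, 41.6%, is near the 36.0% of the bound and is not read as cells that use both genes. Among Adamdec1-high cells, both were found in 71.3% of Amotl2-low and 77.1% of Amotl2-high cells, Fbln1 alone in 23.9% and 1.30%, and Fbln5 alone in 4.48% and 21.6%. Fbln5 alone was found in 75.0% of vFB3-like and 77.5% of FB5-like cells. Thinning left out 21 of 69 MC-like cells, and 55 Adamdec1-high, 11 FB4-like, 5 FB5-like, 1 SMC-like and 1 vFB3-like cells. Unthinned, Fbln1 alone was found in 33.1% of Amotl2-low and 2.79% of Amotl2-high FB4-like cells, and Fbln5 alone in 60% of vFB3-like and 76.1% of FB5-like cells.

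**Figure D4:**
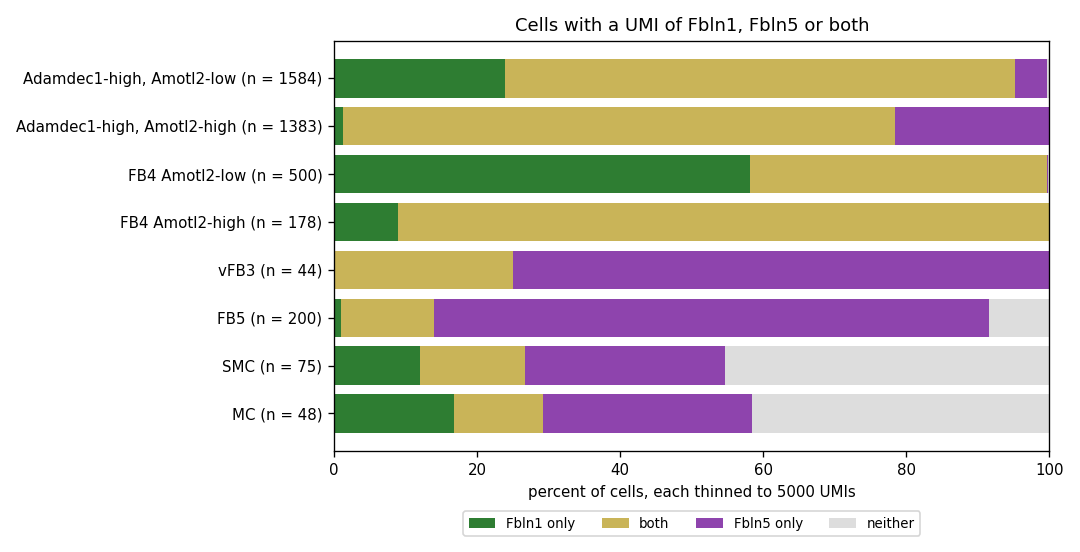
Share of cells (percent) with UMIs of both Fbln1 and Fbln5, of either alone or of neither, in each group of cells thinned to 5000 UMIs. Cells with both make up 91.0% of Amotl2-high and 41.4% of Amotl2-low FB4-like cells.

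Another 19 elastic fibre, microfibril and cross-linking genes were counted beside the set. In FB4-like cells 2 were at least 2-fold higher, Postn (4.82-fold), a matricellular protein, and Emilin2 (18.0-fold), an elastin-microfibril interface protein at 14.7 CPM, and 6 were lower, among them Efemp1 (fibulin-3, 2.73-fold) and Ltbp1 (2.76-fold), a latent TGF-β binding protein. These were 10.5% and 31.6% of the 19, beside 3.58% and 6.04% of all genes. In vFB3-like cells 4 were higher and 5 lower (21.1% and 26.3%, beside 8.08% and 15.8% of all genes). Ltbp2, one of the cluster's 10 leading genes, was 46.6-fold higher, Fbn2 6.16-fold, Emilin1 2.68-fold and Atp7a, the copper transporter that loads lysyl oxidases, 2.5-fold, while Ltbp4 was 5.49-fold lower. Postn had 0 UMIs there, where 3 counts, a one-sided limit, would be 5.16 CPM, and so was at least 18.1-fold lower (14.7-fold by the wider 2-sided interval of the ratio). Emilin2, counted as lower in vFB3-like and FB5-like cells, had 0 UMIs in both, and its 0.816 CPM in Adamdec1-high cells (27 UMIs) lay below the level that 3 counts would give in either (5.16 and 1.2 CPM), so no difference was detectable at this depth. Without it 4 genes were lower in vFB3-like cells and 5 in FB5-like cells. FB5-like cells also had more Fbn2 (3.59-fold) and Ltbp2 (4.75-fold), with 2 higher and 6 lower (5.53% and 11.5% of all genes). SMC-like cells had 2 higher, Postn (6.05-fold) and Emilin2 (from 2 UMIs), and 7 lower, among them Ltbp2 from 3 UMIs with a ratio of 0.497 (0.102 to 1.47), beside 6.50% and 12.9% of all genes, and MC-like cells 1 higher, Emilin2 from 1 UMI, and 11 lower (9.62% and 14.7%). Along the Amotl2 split 5 were at least 1.5-fold higher and 2 lower (5.45% and 7.62% of all genes). Ltbp2 (7.76-fold), Fbn2 (6.57-fold), Efemp1 (2.96-fold), Loxl4 (2.80-fold) and Fn1 (1.98-fold) were the higher ones, and Emilin1 (1.54-fold) and Emilin2 (7 against 20 UMIs) the lower ones. In Amotl2-high FB4-like cells 4 were higher, Efemp1 (3.11-fold), Fbn2 (2.49-fold), Loxl4 (2.28-fold) and Efemp2 (fibulin-4, 1.64-fold), and 3 lower (8.42% and 12.7% of all genes), Emilin2 (2.70-fold), Adamtsl2 (1.58-fold) and Ltbp2 (2 UMIs, ratio 0.464, 0.0499 to 2.12).

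**Figure D5:**
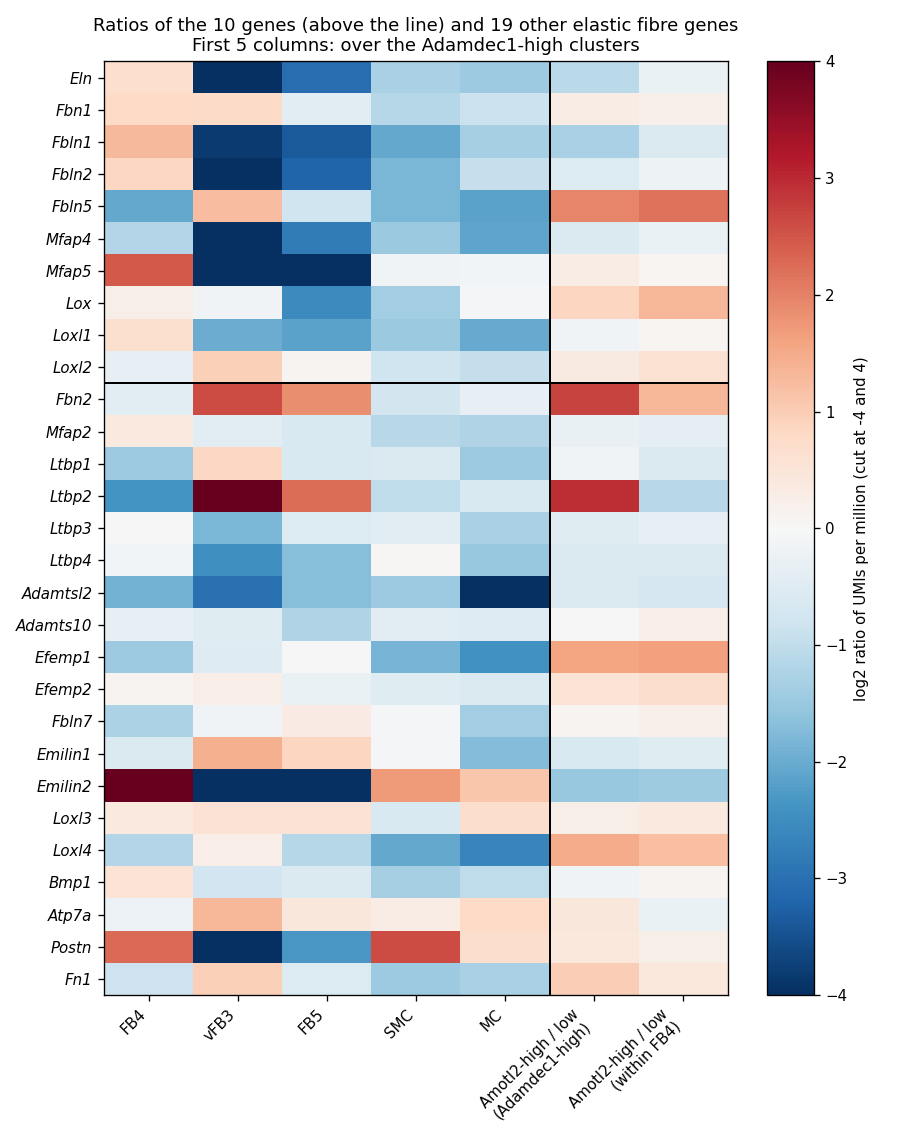
Colour gives the log2 ratio, limited to -4 to 4, of the 10 genes (above the line) and the 19 further genes in each comparison, with genes that had no UMI in a cluster in the darkest blue. Ltbp2 is 46.6-fold higher in vFB3-like cells and Fbn2 6.57-fold higher in Amotl2-high cells.

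Genes with the nearest pattern over the 9 clusters were sought among 6009 genes by Pearson r of log levels, as a description. For Eln they were C4b and Pth1r (0.99 each), for Fbln1 Gsn and Adcyap1r1 (0.99) and for Fbln2 Slit3 and Gsn (0.98). Gsn, an actin-severing protein, ran from 10699 CPM in FB4-like to 378 CPM in vFB3-like cells. Fbn1 was nearest to Col1a2 (0.97), a chain of fibrillar collagen I, at 3908 CPM in FB4-like and 941 CPM in SMC-like cells. Fbln5 was nearest to Rnf139 (0.97) and Ddt (0.95), Mfap4 to Cask and Acss3 (0.98), Mfap5 to Auts2 and Abi3bp (0.96), Lox to Ext1 (0.93), Loxl1 to Fcgrt (0.99) and Loxl2 to Yif1b and Cog4 (0.97). Rnf139 spanned only 26.4 to 43.0 CPM where Fbln5 spanned 282 to 2934 CPM, so a shared order is not a shared size of difference.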

How the data were processed

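Droplet single-cell RNA sequencing of transcript ends was used for 1 of 4 samples. Per the labels and methods, the authors ran Cell Ranger 3.0.2 on mm10 and Seurat (3.0.1 in the processing notes, while the paper's methods name a slightly earlier version), kept cells with 1000 to 6000 genes and at most 7% mitochondrial reads, removed immune and endothelial cells and split cells by Xist. The deposited values are natural log values, ln(1 + UMIs per 10000). Exponentiated values were whole multiples of a unit in each cell for 100% of 13789523 nonzero values (tolerance 0.001), so whole UMI counts were recovered and used where counts had been planned for. No other per-sample column was left out (0).

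Cells were clustered in Seurat 5.3.0 (R 4.3.3) with 2000 variable genes, 30 principal components and resolution 0.5, after leaving out the 10 genes, the further elastic genes, the YAP targets, the study's secreted factors and sex-linked genes. A marker counted where at least 10% of cells had it and its level was 2-fold over the median of other clusters, and a name needed 3. Names were rebuilt here and may differ from the study's classes. Scrublet called 9 cells as doublets, and whether it missed others was not tested. None were removed, and the top 4% of scores were left out as an alternative. UMIs were summed per cluster as CPM in Python 3.11.15, genes under 2 CPM in the library were not compared, and ratios of at least 2-fold (1.5-fold for the Amotl2 and Fos splits) were counted. The ratio step was tested on simulated data. The genes named are the 10 members, the further elastic genes, the markers and 1 or 2 of the 2 genes nearest to each member in pattern. The YAP targets, Fos, Lats1, Vegfc, Pdgfrb, Xist and some leading genes of the clusters are also named. Members, lists, rules and names were chosen with earlier results of these data known. Sequences are from RefSeq (GRCm38.p6) and spans from GENCODE. Depth was 1965 to 35727 UMIs per cell, and 116 cells had both Xist and a Y-linked UMI.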

Additional observations from a re-analysis of the deposited data

How the results depend on the processing

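Alternatives changed the clustering, the cells kept, depth and the way levels were summed. No paired analysis was possible because 1 library has values here. Ratios of single genes were counted together with the median share of cells with a UMI, whose 2 alternatives were set as moved without an interval. A minimum of 10 CPM left out none of the 10 genes, so its values are the same by design. Of all these, 334 alternative values stayed within the counting interval of the reported one, 226 moved and 2 reversed. The cause of a change was not tested. Beside these, ratios between the call limits also crossed 1: Fbn1 in vFB3-like cells (1.69) in 5 of 19 alternatives, down to 0.875, Lox in FB4-like cells (1.17, down to 0.767) and in vFB3-like cells (0.904, up to 1.13) in 2 of 19 each, and Loxl1 along the Amotl2 split (0.901, up to 1.06) in 2 of 18. The reversals of called values were Mfap4 in vFB3-like cells, from a ratio of 0.0290 to 1.09 both with the members and lists kept among the variable genes and with immediate early genes left out. Those settings widened the vFB3-like class from 45 to 1098 and 1102 cells, and there 1 gene was lower in place of 6. At resolution 1.0 (567 cells), with nothing regressed out (331) and with M and F cells integrated (442), 3 were lower. With at most 5% mitochondrial UMIs, 8000 to 14000 UMIs per cell, a mean of cell CPM or M cells alone, 2 were higher in place of 1. In FB4-like cells 1 gene was higher in place of 2 with the members and lists kept, with immediate early genes left out and with types from markers per cell, and 1 lower in place of 2 with at most 5% mitochondrial UMIs and with markers per cell. The FB4-like median ratio of 1.57 went to 1.39 (resolution 1.0), 1.47 (nothing regressed), 1.44 (members and lists kept), 1.44 (no immediate early genes), 1.45 (integrated), 1.39 (8000 to 14000 UMIs), 1.34 (markers per cell), 1.49 (mean of cell CPM) and 1.49 (M alone). With markers per cell, 4 FB5-like genes were lower in place of 7, 1 SMC-like higher and 1 lower in place of 0 and 8, and 1 MC-like lower in place of 5. In MC-like cells 8 were lower with at most 5% mitochondrial UMIs, a mean of cell CPM, M cells alone or without cells with 2 FB4 markers. Along the Amotl2 split 3 genes in place of 5 passed at resolution 1.0, without Eln (0.869) and Mfap4 (0.762), and markers per cell gave no such split. Levels within 1.5-fold of the reported ones numbered 38 of 50 with at most 5% mitochondrial UMIs, where no SMC-like class was found. Of 60 levels, they numbered 30 with markers per cell, 41 with 8000 to 14000 UMIs per cell and 45 with the free RNA bound subtracted. In the other settings they numbered 51 to 60. Fbln5 stayed lower in FB4-like cells (ratio 0.152 to 0.376) and higher in vFB3-like cells (2.06 to 3.31) in all 19 alternatives. It was higher along the Amotl2 split (3.04 to 4.49) in all 18. In each case 1 of these, the minimum of 10 CPM, repeats the reported values and could not differ. The integration, the free RNA bound and the removal of cells with FB4 markers were added after seeing the data. The median share of cells with a UMI was 37.4% when thinned to 5000 UMIs, 20.9% at 2000 and 55.7% unthinned.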
